A study of Sus scrofa with 6 samples.

Results

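The miR-199/miR-214 group was examined in the left atrium (LA) of pigs, as the 5 array probes whose names are ssc-miR-199a, ssc-miR-199b or ssc-miR-214 with or without an arm suffix. They are miR-199a-3p, miR-199a-5p, miR-199b-3p, miR-199b-5p and miR-214, and they were chosen by name from the 322 pig miRNA probes of the array. Total LA RNA from 3 sham and 3 paced animals was hybridized to 1-colour arrays, and each animal had its own array. Animals of the paced group had undergone 3 bursts of rapid right atrial pacing through a catheter, which set off short self-terminating episodes of atrial fibrillation (AF), and tissue was taken on the following day. The sham animals were catheterized and not paced. The beta blocker esmolol was given before pacing. The methods describe Large White pigs of 3 months, whereas the sample labels describe neonatal piglets. The model is limited to a short burst of arrhythmia in animals without heart disease, and to whole LA tissue, in which fewer cells of a type and less RNA per cell cannot be told apart.

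MiRNAs are short RNAs that lower the output of messenger RNAs matched by their seed, the stretch from base 2 to base 8. In vertebrates one miR-199a gene and the miR-214 gene sit close together and are made from a common long transcript on the strand opposite to a dynamin gene. These miRNAs are abundant in fibroblasts and other mesenchymal cells. In the heart, miR-199a is known as a regulator of HIF1A, the hypoxia factor, miR-199a-3p as an inducer of cardiomyocyte proliferation, and miR-214 as a repressor of the sodium/calcium exchanger SLC8A1. In a RefSeq gene table of the Sscrofa11.1 assembly, MIR214 and MIR199A-1 lie within 10 kb of each other inside DNM3, MIR199A-2 lies inside DNM2 and MIR199B inside DNM1. The mature miR-199a arms can come from either miR-199a gene, so the array does not separate the copy beside MIR214 from the copy in DNM2.

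The mature sequences show which of the 5 probes can be told apart. They are given 5′ to 3′ as the array files list them, with the seed in capitals.
miR-199a-5p: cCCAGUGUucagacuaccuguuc
miR-199b-5p: cCCAGUGUuuagacuaucuguu
miR-199a-3p: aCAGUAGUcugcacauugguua
miR-199b-3p: uACAGUAGucugcacauugguu
miR-214: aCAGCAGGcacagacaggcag
The pair of 5p arms shares the seed CCAGUGU, and no other probe of the 322 has it. Counted from 1 at the 5′ end, miR-199b-5p differs from miR-199a-5p by C10U and C17U, with 20 of 22 aligned bases the same and 1 further base at the 3′ end of miR-199a-5p. The 3p entries share a run of 21 bases. The miR-199b-3p entry starts 1 base earlier on that run, which moves its seed to ACAGUAG, whereas the seed of miR-199a-3p is CAGUAGU. The seed of miR-214 is CAGCAGG, and no other probe has the seed of a 3p entry or of miR-214. How far each probe binds the RNA of its near-identical partner was not tested, so the values of such a pair are uncertain as measures of separate miRNAs.

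All 5 miRNAs gave signals far over background on every array. Each probe had 9 repeat spots, and it counted as detected where their median lay over 3 SD above the median of that array's 786 empty spots. All 5 miRNAs were detected on all 6 arrays, also when the 15 empty spots closest to each spot were the reference. Of the 322 probes, 104 were detected on all 6 arrays. The empty-spot median was 64.7 to 214.1 scanner units on the sham arrays and 242.5 to 399 on the paced arrays, without overlap. The signal of the 5 probes was accordingly 23.4 to 79.6 times the empty-spot median in sham and 6.94 to 22.9 times in paced animals. With no background correction at all, the paced minus sham log2 differences reported below were -0.19 for miR-199a-5p, -0.07 for miR-199a-3p, 0.04 for miR-199b-3p, -0.05 for miR-199b-5p and 0.0074 for miR-214, each with its reported sign. The LA carried the miRNAs of cardiac muscle, with 5 of 7 probes of the cardiomyocyte list (miR-1, miR-133a, miR-133b, miR-208b and miR-499) detected on all arrays. Of the other probes of that list, miR-208b was detected on 5 arrays and miR-499-3p on none.

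Before normalization, 1 array had the highest scanner values for each of the miR-199 and miR-214 probes. The median of the repeat spots of miR-199a-3p was 8727, 4969.8 and 6061 units in sham animals 1, 2 and 3. In paced animals 1, 2 and 3 it was 4992, 5548 and 5074 units. Sham animal 1 was likewise the highest of the 6 for the other 4 miRNAs, at 8175 units for miR-199a-5p, 7262 for miR-199b-3p, 5015 for miR-199b-5p and 5855 for miR-214. For miR-214 the other arrays lay between 3866 and 5001 units. After normalization, sham animal 1 was the highest for miR-199a-5p and miR-199b-5p alone.

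**Figure D1:**
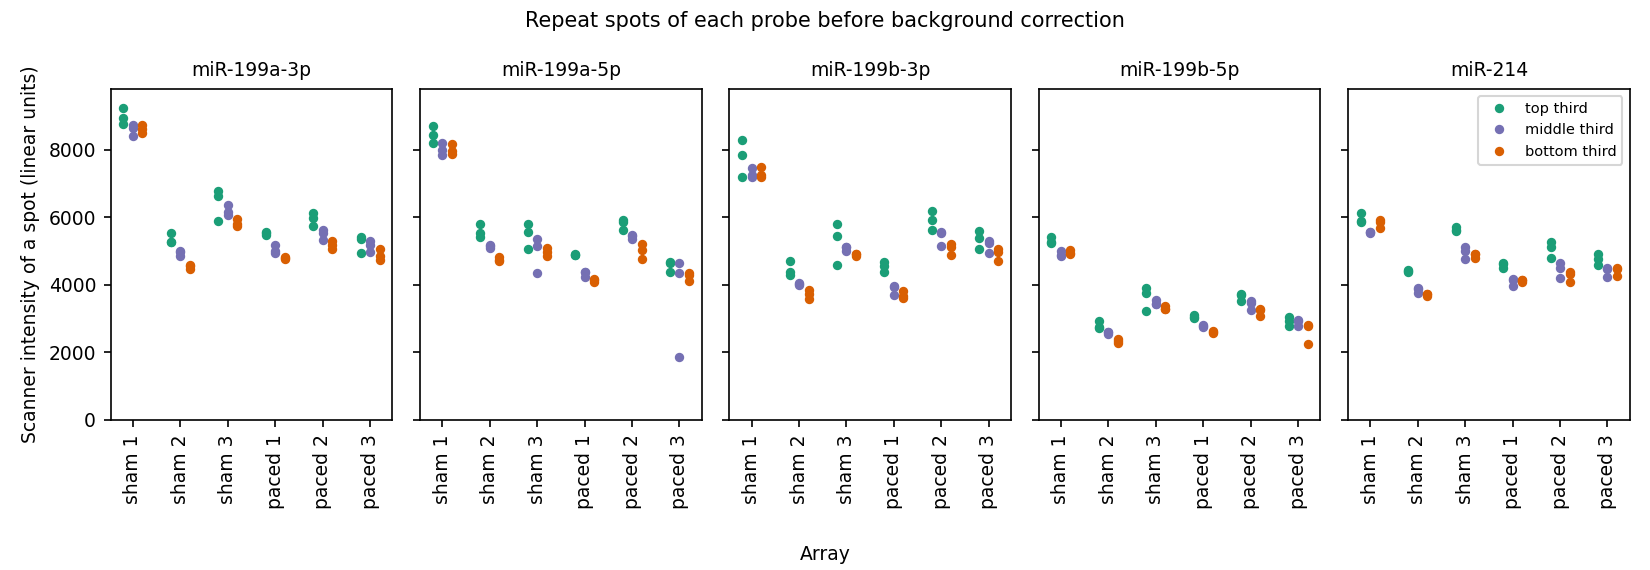
Scanner intensity (linear units, background included) of the 9 repeat spots of each miRNA on each array, coloured by the section of the array (top, middle or bottom) in which the spot lies. Sham 1 is the brightest array for all 5 miRNAs, and 1 spot of miR-199a-5p on paced 3 lies at 1859.5 units, below its 8 companions.

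The repeat spots agreed closely with 1 exception. The coefficient of variation over the 9 spots was 2.85% to 9.86% for every miRNA and array other than miR-199a-5p in paced animal 3, where it was 21.2%. There, 1 spot read 1859.5 units and the other 8 read between 4121 and 4666 units, so the low spot stood at 42.7% of the probe's median. The next lowest of the 270 member spots stood at 80.1% of its median. Each probe had 3 spots in each of 3 sections of the array, and the spots of the bottom section were dimmer than those of the top section by 2.36% to 18.4%, in all 30 combinations of miRNA and array.

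The main comparison asked whether the level of these miRNAs in the LA differed between paced and sham animals. After a normexp background correction, scanner values were quantile-normalized and averaged as log2 intensity over the repeat spots, and limma was fitted to all 322 probes with Benjamini-Hochberg adjustment. None of the 5 miRNAs passed the test, and for none were the groups free of overlap. The count was 0 of 5 at the methods' threshold of an unadjusted p of 0.05, which 10.6% of all probes reached, and 0 of 5 after adjustment, which 0% of probes reached. The groups were free of overlap for 17.4% of all probes and for 4.81% of the 104 probes detected on all arrays, of which 3.85% reached an unadjusted p of 0.05. The median difference of the 5 miRNAs was -0.05 on the log2 scale, against -0.03 over those 104 probes and 0.0031 over all probes.

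**Figure D2:**
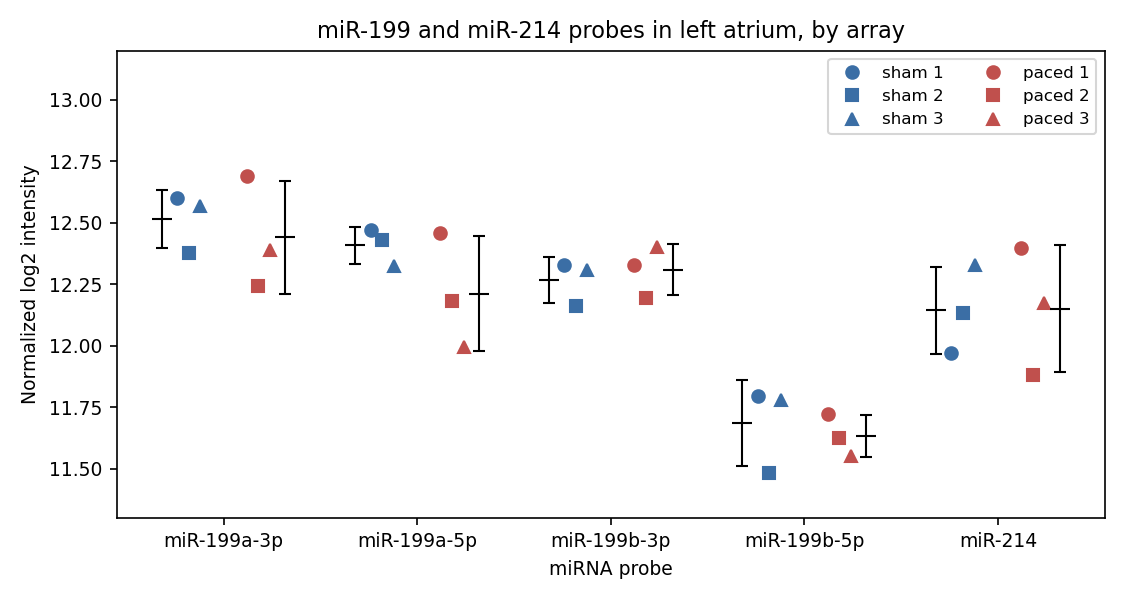
Normalized log2 intensity of each miRNA (vertical axis) on each array, with sham animals in blue, paced animals in red and a marker shape for each animal number; black bars are group means with SD (n = 3). Paced and sham points overlap for all 5 miRNAs, and levels of different probes are not comparable.

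miR-199a-5p, the arm known to target HIF1A, had the lowest p of the 5. Its normalized log2 intensity was 12.47, 12.43 and 12.32 in sham animals 1, 2 and 3, and 12.46, 12.18 and 11.99 in paced animals 1, 2 and 3. Paced animals 2 and 3 lay below every sham animal, and paced animal 1 lay among the sham animals. The sham mean was 12.41 ± 0.07 and the paced mean 12.21 ± 0.23 (SD, n = 3 each). The difference of -0.20 (SE 0.12, limma, adjusted p = 0.601) had a 95% interval from -0.49 to 0.10, which is a paced level of 0.712 to 1.07 times the sham level. Without the single low spot of paced animal 3, a choice made after the spots were seen, that animal read 12.14 and the log2 difference came to -0.15 (SE 0.10, adjusted p = 0.668 in limma). Without paced animal 1 the difference was -0.31 (SE 0.09) with an unadjusted p of 0.0103 and an adjusted p of 0.0971 in limma. Without paced animal 3 it was -0.09 (SE 0.11, limma, adjusted p = 0.906).

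miR-199b-5p carries the same seed as miR-199a-5p. Its log2 intensity was 11.80, 11.48 and 11.78 in sham animals 1, 2 and 3, and 11.72, 11.62 and 11.55 in paced animals 1, 2 and 3. All 3 paced values lay within the range of the sham values. The sham mean was 11.69 ± 0.18 and the paced mean 11.63 ± 0.09 (SD, n = 3 each), which differed by -0.05 (SE 0.10, adjusted p = 0.875 in limma). The 95% interval ran from -0.30 to 0.19, or 0.810 to 1.14 times the sham level. With 1 animal left out, the difference was -0.16 without sham animal 2, the lowest of the 6 (adjusted p = 0.822 in limma), and -0.0017 without sham animal 1, -0.013 without sham animal 3 and -0.0082 without paced animal 3. In the authors' processed intensities, the 5p arms gave the same order of groups. The means were 5339 ± 361 in sham and 4887 ± 509.9 in paced animals for miR-199a-5p, and 3140.0 ± 409 and 3001 ± 346 for miR-199b-5p (SD, n = 3 each), with overlap for both.

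miR-199a-3p, the arm known to induce cardiomyocyte proliferation, read 12.60, 12.38 and 12.57 in sham animals 1, 2 and 3. In paced animals 1, 2 and 3 it read 12.69, 12.24 and 12.39. The paced group held both the highest and the lowest of the 6 values. The sham mean was 12.52 ± 0.12 and the paced mean 12.44 ± 0.23 (SD, n = 3 each). They differed by -0.08 (SE 0.13, adjusted p = 0.865 in limma), and the 95% interval ran from -0.38 to 0.23, or 0.767 to 1.17 times the sham level. Without paced animal 2 it was 0.02, and without paced animal 1 it was -0.20 (limma, adjusted p = 0.950 and 0.290).

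miR-199b-3p, which shares all but 1 base at each end with miR-199a-3p, varied least. It read 12.33, 12.16 and 12.31 in sham animals 1, 2 and 3, and 12.33, 12.20 and 12.40 in paced animals 1, 2 and 3. The sham mean was 12.27 ± 0.09 and the paced mean 12.31 ± 0.10 (SD, n = 3 each), which differed by 0.04 (SE 0.08, adjusted p = 0.884 in limma). Without sham animal 2 the difference was -0.010, and without paced animal 3 it was -0.0052. Its 95% interval, from -0.16 to 0.24, was the narrowest of the 5 and corresponds to 0.894 to 1.18 times the sham level. The processed intensities had means of 4763 ± 468 in sham and 4995 ± 287 in paced animals for miR-199b-3p, and of 5754 ± 572 and 5447 ± 783 for miR-199a-3p (SD, n = 3 each). Both sets overlapped.

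miR-214, the repressor of SLC8A1, had the smallest difference and the widest spread. It read 11.97, 12.13 and 12.33 in sham animals 1, 2 and 3, and 12.40, 11.88 and 12.17 in paced animals 1, 2 and 3. As for miR-199a-3p, the paced group held both extremes. The sham mean was 12.14 ± 0.18 and the paced mean 12.15 ± 0.26 (SD, n = 3 each). The difference of 0.0075 (SE 0.15, limma, adjusted p = 0.993) had a 95% interval from -0.35 to 0.37, or 0.783 to 1.29 times the sham level. Its sign rested on single animals, since the difference was -0.07 without sham animal 1, -0.12 without paced animal 1, -0.0015 without paced animal 3 and 0.15 without paced animal 2. The processed intensities were 3872, 4182 and 5017 in sham animals 1, 2 and 3 and 5344, 3946 and 4654 in paced animals 1, 2 and 3, with means of 4357 ± 592 and 4648 ± 699 (SD, n = 3 each). The log2 difference was 0.09 on these values and 0.12 with cyclic loess in place of quantile normalization, and neither passed (limma, unadjusted p = 0.618 and 0.413). Without normalization it was -0.18, and with scaling to the median of the detected probes or the median of the repeat spots it was -0.021.

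**Figure D3:**
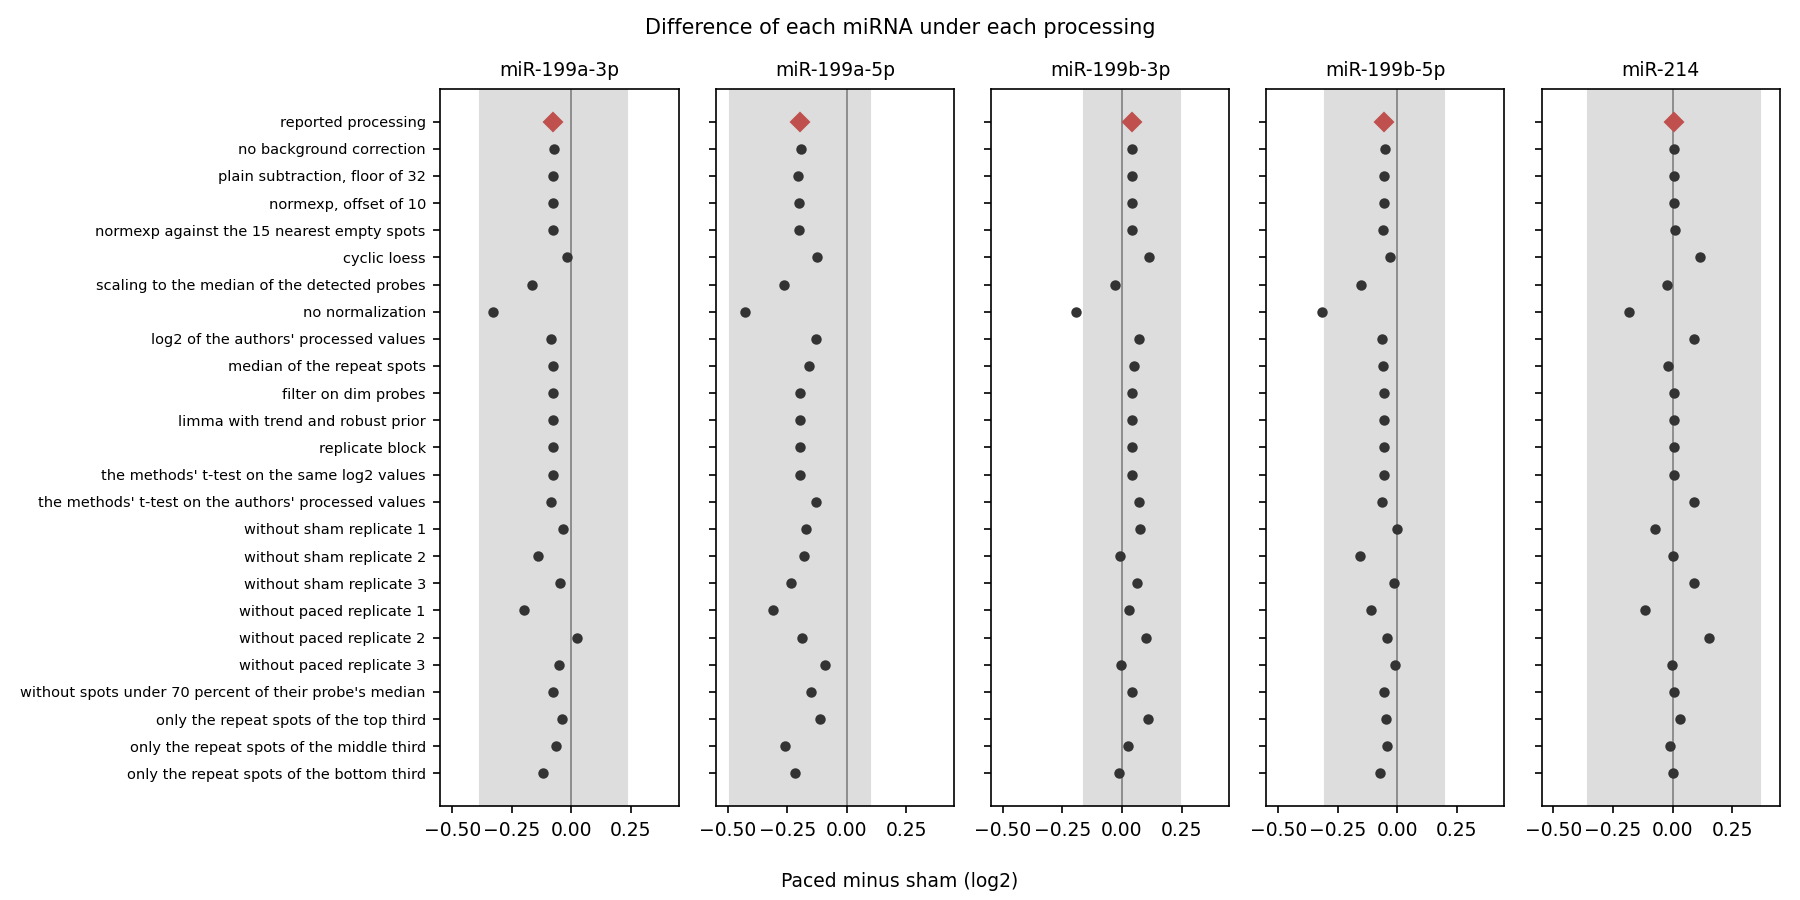
Paced minus sham log2 difference (horizontal axis) of each miRNA under the reported processing (red diamond) and under 24 alternatives (black dots; 19 of them can give a value of their own), with the 95% interval of the reported limma fit in grey. Without normalization between arrays all 5 differences are negative and lie at the lowest point of each panel, from -0.43 for miR-199a-5p to -0.18 for miR-214.

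The spread between animals was ranked as the within-group SD, pooled over both groups, within the 104 probes detected on all arrays. It was 0.22 for miR-214 (percentile 70.7), 0.18 for miR-199a-3p (60.1), 0.17 for miR-199a-5p (54.3), 0.14 for miR-199b-5p (38.9) and 0.10 for miR-199b-3p (15.9). All but miR-199b-3p therefore lay between the percentiles of 38.9 and 70.7. Paced animal 1 was above the mean of the 6 arrays for all 5 miRNAs, by 0.04 (miR-199b-3p) to 0.25 (miR-214). Paced animal 2 was below it for all 5, by 0.04 (miR-199b-5p) to 0.27 (miR-214). In paced animal 3, miR-199a-5p was 0.32 below its mean while miR-199b-3p was 0.11 above its own. The single low spot is part of that miR-199a-5p value, which was 12.14 without the spot and 11.99 with it.

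**Figure D4:**
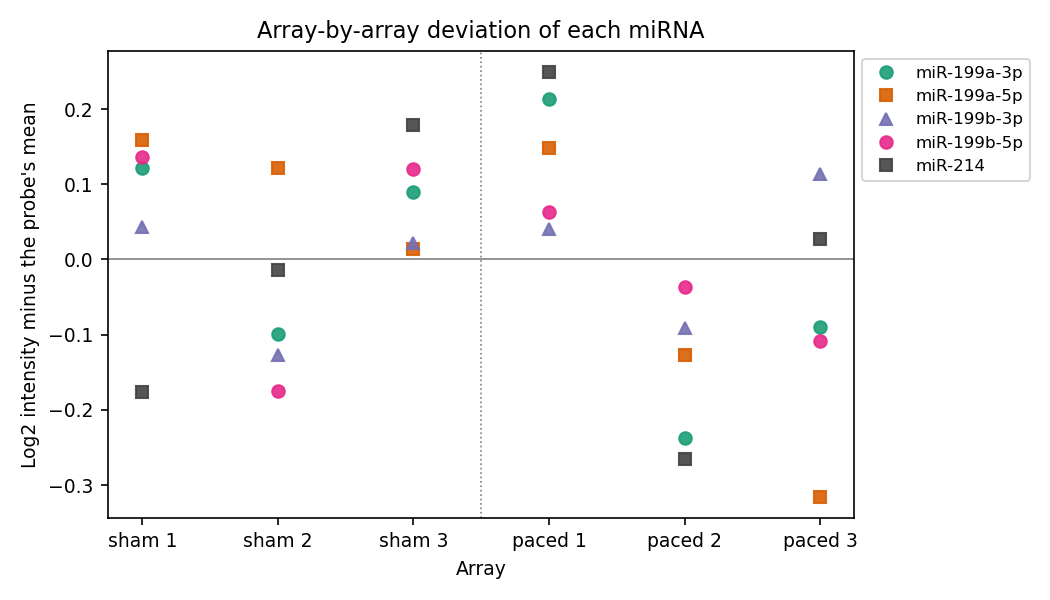
Log2 intensity of each miRNA minus its mean over the 6 arrays (vertical axis), by array, with a dotted line between sham and paced animals. Paced 1 lies above 0 and paced 2 below 0 for all 5 miRNAs, whereas the miRNAs scatter to both sides on paced 3.

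Next, the change of one miRNA was set against that of another within the same array, which cancels an error in scaling that both probes share. The log2 difference between probes reflects the probes as well as the RNAs, so that only its change between groups is read. The 10 pairs of the 5 miRNAs were compared with an exact two-sided permutation test, for which 3 against 3 arrays cannot give a p below 0.1. With all animals, no pair reached that value, no pair was without overlap, and the lowest p adjusted over the 10 pairs was 0.833. Without paced animal 1, miR-199a-3p and miR-199a-5p changed by -0.23 and -0.34 relative to miR-199b-3p (exact permutation test, p = 0.1 each). That is the lowest p the remaining arrays can give, and it was not adjusted for the pairs or the animals left out.

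The change of miR-199a-5p relative to miR-199b-3p was -0.24, with the lowest p of the 10 pairs (exact permutation test, two-sided, p = 0.2). The within-array difference was 0.14, 0.27 and 0.01 in sham animals 1, 2 and 3 and 0.13, -0.01 and -0.41 in paced animals 1, 2 and 3, so the array with the low spot, that of paced animal 3, lay farthest out. Without the low spot the change was -0.19 (exact permutation test, two-sided, p = 0.2). It was -0.085 without paced animal 3 and -0.34 without paced animal 1. Between the 3p entries, which share 21 bases, the within-array difference was 0.27, 0.22 and 0.26 in the sham animals. In paced animals 1, 2 and 3 it was 0.36, 0.05 and -0.01. The SD was 0.03 in sham and 0.20 in paced animals, and the change between groups was -0.12 (exact permutation test, two-sided, p = 0.4), with a range of -0.23 to -0.046 when 1 animal was left out. The spreads were not compared by a test, and other pairs ran the other way, such as miR-199a-3p and miR-214 with an SD of 0.22 in sham and 0.07 in paced animals.

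The arms of one hairpin were compared in the same way. For miR-199a, the 3p arm changed by 0.12 relative to the 5p arm, and for miR-199b by 0.10 (exact permutation test, two-sided, p = 0.5 for each). For miR-199a the change was 0.073 without the single low spot and 0.047 on the processed values. It was 0.040 without paced animal 3, 0.041 without sham animal 2 and 0.21 without paced animal 2. For miR-199b the change was 0.0031 without paced animal 3 and 0.15 without sham animal 2. Between the 5p arms, miR-199a-5p changed by -0.14 relative to miR-199b-5p (exact permutation test, two-sided, p = 0.5), and by -0.22 to -0.022 when 1 animal was left out. Relative to miR-214, the changes were -0.08 for miR-199a-3p, -0.20 for miR-199a-5p, 0.03 for miR-199b-3p and -0.06 for miR-199b-5p, with p from 0.5 to 1 in the exact permutation test. With 1 animal left out, these changes ranged from -0.14 to 0.039 for miR-199a-3p, from -0.34 to -0.089 for miR-199a-5p, from -0.049 to 0.15 for miR-199b-3p and from -0.19 to 0.073 for miR-199b-5p. The miR-199a-3p and miR-199b-5p changes were positive without sham animal 1, and that of miR-199b-5p also without paced animal 1 (0.0074). On the processed values they were -0.17, -0.22, -0.019 and -0.15 in the same order of miRNAs.

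**Figure D5:**
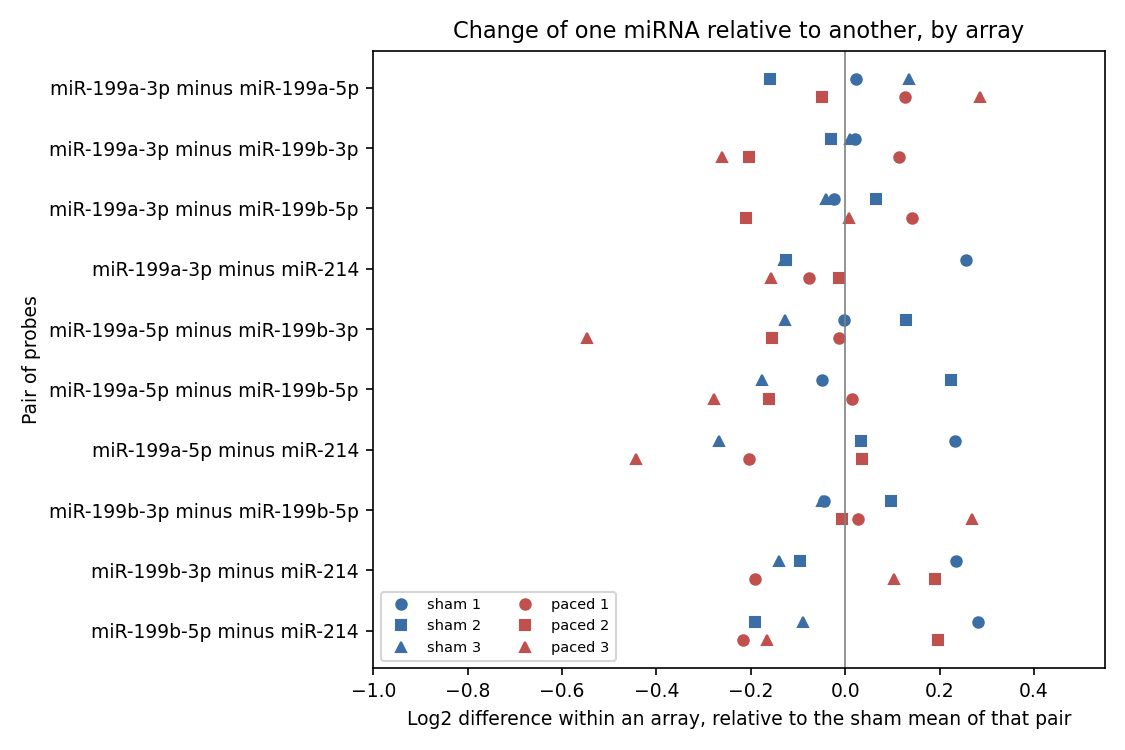
Log2 difference between probes of a pair within each array, minus the sham mean of that pair (horizontal axis), for the 10 pairs, with sham animals in blue and paced animals in red. Paced and sham points overlap in every pair, and the sham points of miR-199a-3p minus miR-199b-3p lie closest together.

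The profiles of the 5 miRNAs over the 6 arrays were set against each other and against other probes. Likeness was measured as the root mean square difference between log2 values centred on the mean of the 6 arrays, in which a low value means like profiles. The closest pair of members was miR-199a-3p and miR-199b-5p, at 0.11, followed by miR-199b-3p and miR-199b-5p, also at 0.11. miR-199a-3p and miR-214 were at 0.14, and miR-199a-5p and miR-214 were farthest apart at 0.23. The number of outside probes closer to a member than its nearest fellow member was 6 for miR-214, 8 for miR-199a-3p, 9 for miR-199b-5p, 11 for miR-199b-3p and 29 for miR-199a-5p, of 99 other probes detected on all arrays. Each member had 4 fellows against these 99 probes, so the counts do not show whether the members are more or less alike than other probes.

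The closest outside probes were taken by rule, 3 for each member. For miR-199a-3p they were miR-361-5p, miR-185 and let-7i (0.06 to 0.07, against a median of 0.17 over the 99 probes). Those of miR-199a-5p were miR-130a, miR-181a and miR-27b-3p (0.04 to 0.08, median 0.18). For miR-199b-3p the rule gave miR-133b, let-7i and miR-125b (0.08 to 0.09, median 0.18), and for miR-199b-5p it gave miR-99a, miR-676-3p and miR-28-5p (0.05 to 0.08, median 0.18). miR-214 had no neighbour as close, with miR-361-5p, miR-320 and miR-99b at 0.12 to 0.13 and a median of 0.21. These values describe 6 arrays that share their normalization. miR-133b and miR-133a-3p held ranks 1 and 2 on every array, where quantile normalization fixes the level. The profile of miR-133b was therefore nearly flat, and its closeness to miR-199b-3p shows only that miR-199b-3p varied little.

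Other miRNAs linked to cardiac fibrosis were listed for comparison. The list held 17 probes, taken by miRNA name with every arm on the array. They were 4 probes of miR-21, miR-34a and miR-155, known as pro-fibrotic, and 13 of miR-29a, miR-29b, miR-29c, miR-30c, miR-133a, miR-24, miR-101 and miR-26a, known as anti-fibrotic. The roles are not known to hold for the opposite arms, which have other seeds. At an unadjusted p of 0.05 in limma, 0 of 17 were higher in paced animals (3.42% of all probes) and 3 of 17 were lower (7.14% of all probes), and 0 passed after adjustment. The median difference over the list was 0.00013. The 3 lower probes were miR-24-2-5p at -0.39, miR-30c-3p at -0.25 and miR-30c-1-3p at -0.18 (limma, adjusted p = 0.134, 0.222 and 0.407). miR-24-2-5p was detected on 3 of 6 arrays and the others on none. All 3 are the minor arms of their hairpins. The main arms, detected on 6 of 6 arrays, did not pass, with miR-24-3p at 0.12 and miR-30c-5p at -0.07 (limma, adjusted p = 0.750 for each). The median difference was 0.13 over the 4 probes of the first names, of which none passed, and -0.03 over the 13 probes of the second. Opposite arms are included in both. Of the 4, only miR-21 was detected on all arrays, at 0.37 (limma, adjusted p = 0.670), and miR-155-3p was detected on 0. Of the 13, 8 were detected on all arrays, and their differences ranged from -0.39 to 0.43 over the 13.

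The lists of cell type markers were read for shifts beside the fibroblast miRNAs. Summed over probes as linear normalized intensity, the miR-199/miR-214 group ranged from 22785 to 24932 in sham and from 21113 to 26154 in paced animals. The cardiomyocyte list (7 probes, 0 past an unadjusted p of 0.05, against 10.6% of all probes) ranged from 60404 to 62926 and from 58097 to 68905. Of this sum, 67.6% to 80.2% lay in miR-133a-3p and miR-133b, whose level the normalization fixes, and without them it ranged from 13800.5 to 16320 in sham and from 11493 to 22302 in paced animals. The leukocyte list (7 probes of miR-142, miR-146a, miR-150 and miR-155, 0 past it, only 2 detected on all arrays) ranged from 1823 to 1975 and from 1661 to 2129. These ranges overlapped between groups. The smooth muscle list (4 probes, of miR-143 and miR-145) lay at 19261 to 23007 in sham and 17153 to 19084 in paced animals, and these sums did not overlap. How often sums over other probes lack overlap was not examined. Of the 4 probes, miR-143-3p alone passed an unadjusted p of 0.05, at -0.32 (limma, adjusted p = 0.323). It was detected on all arrays, and its groups did not overlap, as for 4.81% of such probes. The groups of miR-145-5p overlapped, at -0.12 (limma, adjusted p = 0.723), as did those of miR-145-3p and miR-143-5p. The erythroid list (3 probes, of miR-144, miR-451 and miR-486) overlapped, at 12198 to 17089 and 8241 to 12293. Of the 3, 1 passed, miR-486 at -0.70 (limma, adjusted p = 0.134), where 7.14% of all probes passed as lower. miR-486 was detected on 5 arrays and miR-144 on 0. The endothelial probes of miR-126 overlapped when summed, at 8345 to 9986 and 8110 to 9397. Of the 2, miR-126-5p passed at 0.37 (limma, adjusted p = 0.357) and was detected on 0 arrays. The part of these shifts in the values of the 5 miRNAs was not tested.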

How the data were processed

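The authors deposited, per array, scanner values (median spot intensity on a linear scale, background included) from a 1-colour LC Sciences pig miRNA array of miRBase 20 content, and 1 processed intensity per probe and array, whose background removal and normalization are not given in the sources used here. Each array held 3968 spots, of which 2898 belonged to the 322 pig probes (9 each). The processed intensities kept the direction of the scanner values (Spearman's rho across probes 0.988 to 0.996) and a linear scale, with a slope of 0.905 to 1.03 between log2 values over the 104 detected probes (scanner values less the empty-spot median). Probes are not independent replicates. Their medians were 48.7, 53.7 and 59.2 in sham replicates 1, 2 and 3 and 48.9, 53.6 and 52.5 in paced replicates 1, 2 and 3. They served as an alternative.

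Groups came from the sample titles. Scanner values of all spots were corrected with normexp (offset 50), control spots were left out, and pig spots were quantile-normalized, transformed to log2 and averaged per probe. Groups were compared with lmFit and eBayes of limma 3.58.1 (R 4.3.3), with p values adjusted by Benjamini and Hochberg over 322 probes. The processing was tested on simulated data with planted differences larger than those reported for these miRNAs. That test does not show whether differences of the reported size would be found. Figures used Python 3.11.15 and matplotlib 3.10.9. No batch is named in the files. The number of arrays limits the precision.

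The members and lists were chosen with earlier results of these data known. Named miRNAs are the members, the 3 closest other probes of each, and list probes with an unadjusted p under 0.05. miR-208b, miR-499-3p, miR-133a-3p, miR-24-3p and miR-30c-5p were chosen after their values were seen. Alternatives covered background, normalization, repeat spots, test, replicate block and each animal left out.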

Additional observations from a re-analysis of the deposited data

How the results depend on the processing

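Of 24 alternatives, 19 can change the paced minus sham difference of a miRNA. Over these it kept its direction in 82 of 95 cases, and none of the 5 miRNAs passed the adjusted threshold under any of the 24. Cyclic loess gave -0.020 for miR-199a-3p, -0.12 for miR-199a-5p, 0.11 for miR-199b-3p and -0.030 for miR-199b-5p. Scaling to the median of the detected probes gave -0.17 for miR-199a-3p and -0.15 for miR-199b-5p. It moved the median of all probes to 0.44 and gave -0.028 for miR-199b-3p and -0.021 for miR-214. Without normalization the median of all probes was 0.27, and these differences were -0.19 and -0.18. With the median of the repeat spots miR-214 was at -0.021. With the spots of the middle section of the array alone it was at -0.011, and with those of the bottom section miR-199b-3p was at -0.011. The median of all probes was 0.061 with the top section, 0.023 with the middle and -0.084 with the bottom. With 1 animal left out, the differences ranged from -0.20 to 0.025 for miR-199a-3p, from -0.010 to 0.10 for miR-199b-3p, from -0.16 to -0.0017 for miR-199b-5p and from -0.12 to 0.15 for miR-214, and the number of the 5 miRNAs past an unadjusted p of 0.05 from 0 to 1. miR-199a-5p was the 1, without paced animal 1. The relative changes, which scaling leaves as they are without normalization, kept their direction in 165 of 180 cases. That of miR-199a-3p to miR-199b-5p was 0.010 with cyclic loess and 0.0067 with the top section, and ranged from -0.088 to 0.066 with 1 animal left out. That of miR-199b-3p to miR-214 was -0.0035 with cyclic loess, -0.0070 with scaling and without normalization, -0.019 on the processed values and -0.013 with the bottom section, and ranged from -0.049 to 0.15. Relative to miR-214 and with 1 animal left out, miR-199a-3p ranged from -0.14 to 0.039 and miR-199b-5p from -0.19 to 0.073. Over all probes, 34 passed an unadjusted p of 0.05 and 0 passed after adjustment. The counts were 181 and 171 with scaling, 15 unadjusted without normalization and 5 with the filter on dim probes, which tests fewer probes. They ranged from 19 to 67 and from 0 to 9 with 1 animal left out, with 67 and 9 without paced animal 1, 19 unadjusted without sham animal 2, 21 without paced animal 3, and 1 adjusted without paced animal 2. Of the calls, 11 were higher and 23 lower in the reported fit. They were 176 and 5 with scaling, 15 and 0 without normalization, 19 and 17 with normexp against the nearest empty spots, 19 and 19 on the processed values, 26 and 2 with the top section and 3 and 49 with the bottom section. The cause was not tested. The sections of the array and the removal of low spots were chosen after the data were examined. Same-numbered animals had correlated deviations of 0.17, -0.01 and 0.21 and share only a number. With the replicate block 33 probes passed unadjusted, 9 higher and 24 lower against 11 and 23. None of the 5 miRNAs passed with it, and the adjusted p of miR-199a-5p was 0.469.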
